A study of Mus musculus with 15 samples.

Results

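The transcripts described here encode inhibitors of mitogen-activated protein (MAP) kinase signalling in mouse kidney. They are 7 dual-specificity phosphatase genes (Dusp1, Dusp4, Dusp5, Dusp6, Dusp8, Dusp10 and Dusp16) and 3 Sprouty genes (Spry1, Spry2 and Spry4). These 10 genes are described out of a table of 23284 genes; no cut on their values was applied, but the set was drawn up with earlier results of these data known. In RNA sequencing of kidneys from wild-type (WT) mice, 5 libraries came from the D-alanine group (D-ala), 5 from the L-alanine group (L-ala) and 5 from the vehicle group, all taken at 2 h. D-alanine and L-alanine are mirror-image forms of one amino acid, and the study was about the effect of D-alanine. The sources used here do not give age, sex, dose, route or the content of the vehicle, and the isomers are set side by side without a claim that their doses matched. Nothing states that the libraries came from separate animals, so p-values measure the spread between these libraries, which may in part be technical.

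The MAP kinases ERK, JNK and p38 are active only when a threonine and a tyrosine in their activation loop both carry phosphate, and the MAP kinase phosphatases of the Dusp family remove both. Sprouty proteins act further upstream and dampen the signal that runs from growth factor receptors through Ras to ERK. Several of these inhibitors are themselves transcribed when the kinases are active, which is why they are called feedback inhibitors, and in the developing mouse kidney Spry1 restrains the receptor Ret during branching of the ureteric bud.

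The promoters of 4 members, picked with the results known, are shown first. Of these, 3 belong to genes that rose with D-ala and carry known response element letters. The fourth belongs to Spry1, a member that fell with L-ala. Dusp16 also rose with D-ala and carries such letters, but is not printed. A link between the letters and the response was not tested. Each printed promoter is the 250 bases before the transcription start in RefSeq on GRCm38.p6, on the strand of the gene, 5′ to 3′. Capitals mark the cyclic AMP response element (CRE) letters TGACGTCA, its core TGACG on either strand, and the CArG box, the element of serum response factor; a core on the other strand reads CGTCA. The Dusp1 stretch is chr17:26508473-26508722 on the minus strand, that of Dusp5 is chr19:53528895-53529144 on the plus strand, that of Dusp8 is chr7:142095285-142095534 on the minus strand, and that of Spry1 is chr3:37639697-37639946 on the plus strand.
Dusp1: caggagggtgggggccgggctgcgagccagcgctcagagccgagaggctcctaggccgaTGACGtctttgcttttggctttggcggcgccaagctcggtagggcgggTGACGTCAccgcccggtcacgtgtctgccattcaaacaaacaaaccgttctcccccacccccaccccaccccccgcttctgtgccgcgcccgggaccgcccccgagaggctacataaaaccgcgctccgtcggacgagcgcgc
Dusp5: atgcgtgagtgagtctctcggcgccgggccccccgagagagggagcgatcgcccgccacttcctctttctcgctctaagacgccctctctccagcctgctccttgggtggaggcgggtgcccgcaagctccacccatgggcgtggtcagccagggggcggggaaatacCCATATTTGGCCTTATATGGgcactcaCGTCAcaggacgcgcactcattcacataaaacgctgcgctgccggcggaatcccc
Dusp8: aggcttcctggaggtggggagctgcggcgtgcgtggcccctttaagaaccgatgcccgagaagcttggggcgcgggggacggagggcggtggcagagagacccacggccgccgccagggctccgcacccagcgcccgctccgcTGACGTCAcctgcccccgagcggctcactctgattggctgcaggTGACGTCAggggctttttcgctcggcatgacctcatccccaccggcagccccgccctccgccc
Spry1: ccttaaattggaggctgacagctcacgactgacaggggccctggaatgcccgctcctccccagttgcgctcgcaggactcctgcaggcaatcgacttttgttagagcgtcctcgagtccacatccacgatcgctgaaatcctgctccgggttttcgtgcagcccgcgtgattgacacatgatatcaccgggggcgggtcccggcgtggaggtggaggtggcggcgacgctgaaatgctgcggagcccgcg

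In the Dusp1 promoter the full CRE lies at bases -143 to -136 before the start, with a further core at -191 to -187. Dusp8 has the full CRE at -107 to -100 and again at -63 to -56, upstream of a start that lies inside the outer bounds of its RefSeq gene. Dusp5 has adjoining CArG boxes at -82 to -73 and -72 to -63, with a CRE core on the other strand at -55 to -51. The printed Spry1 stretch carries none of these letters. From the RefSeq promoter table this search took 8 of the members, leaving out Dusp4 and Spry4. It covered both strands of 300 bases per gene, 250 before and 50 after the start. The full CRE was in 2 of these 8, against 1.79% of the 32851 promoters in the table. The core, which the full CRE contains on both strands, was in 4 of 8 (Dusp1, Dusp5, Dusp8 and Dusp16), against 20.8% of all promoters. The CArG box was in 1 of 8 (Dusp5), against 1.63%, and the Sp1 letters GGGCGG were in 6 of 8, against 35.7%. Neither the AP-1 letters TGANTCA nor the ETS letters CCGGAAG were found in any of the 8, against 7.81% and 8.86% of all promoters.

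**Figure D1:**
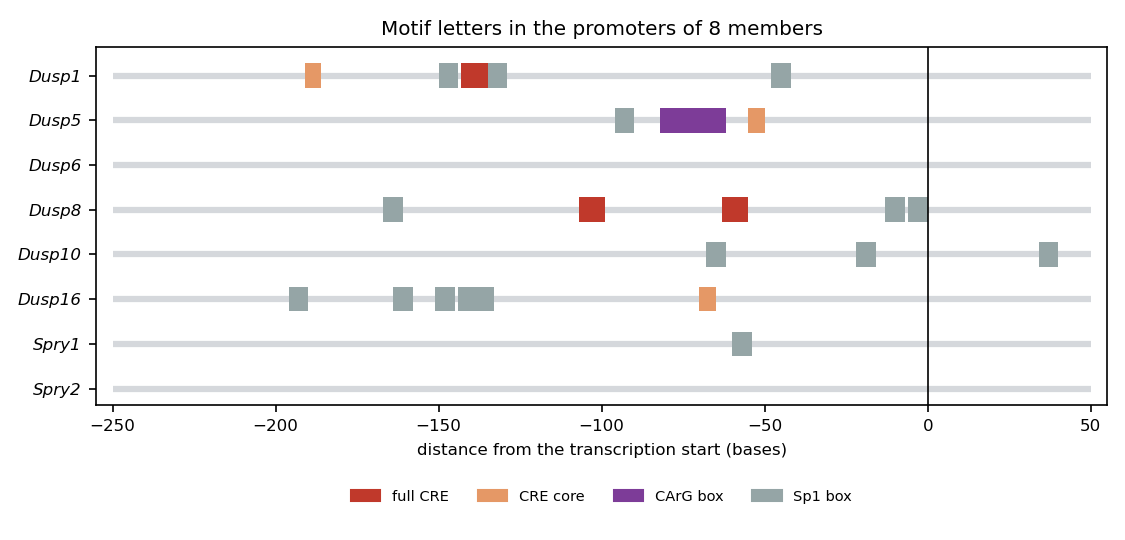
Positions of motif letters in the promoters of 8 members, as distance in bases from the transcription start (vertical line), with the searched window as a grey bar. Red boxes are the full CRE, orange boxes the CRE core outside a full CRE, purple boxes the CArG box and grey boxes the Sp1 letters; red boxes stand in Dusp1 and Dusp8 alone, and the Dusp6 and Spry2 windows are empty.

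Levels are deposited FPKM, fragments scaled to transcript length and library depth, so levels of different genes can be set beside each other. Estimated depth was 7.57 to 10.9 M reads per library. Markers of the labelled tissue were abundant, with a summed level of 8 proximal tubule genes of 6187 to 6791 FPKM in D-ala, 5995 to 6624 in L-ala and 5537 to 6136 in vehicle libraries. D-ala and vehicle did not overlap in this sum, and its part in the levels of the members was not tested. One library stood apart from its group: across all tested genes, each centred on its mean over the 15 libraries, L-ala replicate 5 correlated with its own group at a mean of -0.12, where the other 14 libraries reached 0.071 to 0.288. Genes were tested with limma when they had at least 1 FPKM in 5 or more of the 15 libraries, which 11781 genes did. Fold changes are differences of log2(FPKM + 1), a scale that understates the change of low genes, and a call needed an adjusted p under 0.05 (Benjamini-Hochberg, over all 11781). Of the 10 members 9 were tested, and Dusp10 stayed below 1 FPKM in every library.

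Among the members Dusp1 was the most abundant transcript in all 3 groups, followed by Dusp6 and Dusp16, and Dusp10 was the least abundant. Summed over the 10 genes, the level was 307 ± 25.5 FPKM in D-ala, 275 ± 45.3 in L-ala and 105 ± 35.1 in vehicle libraries (SD, n = 5 each). Dusp1 made up 76.5% ± 2.80 of that sum in D-ala and 79.3% ± 4.08 in L-ala libraries, against 46.7% ± 16.3 in vehicle libraries. Without Dusp1 the sum was 71.7 ± 7.64 FPKM in D-ala, 55.4 ± 4.92 in L-ala and 51.6 ± 5.56 in vehicle libraries. In the order of mean levels, the ranges of Dusp1, Dusp6 and Dusp16 did not overlap in any group, whereas Spry1 and Spry2 overlapped each other in all 3. Dusp4 ranked 4 of 10 in D-ala, with a range that overlapped that of Dusp16, but 6 of 10 in L-ala and in vehicle libraries.

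**Figure D2:**
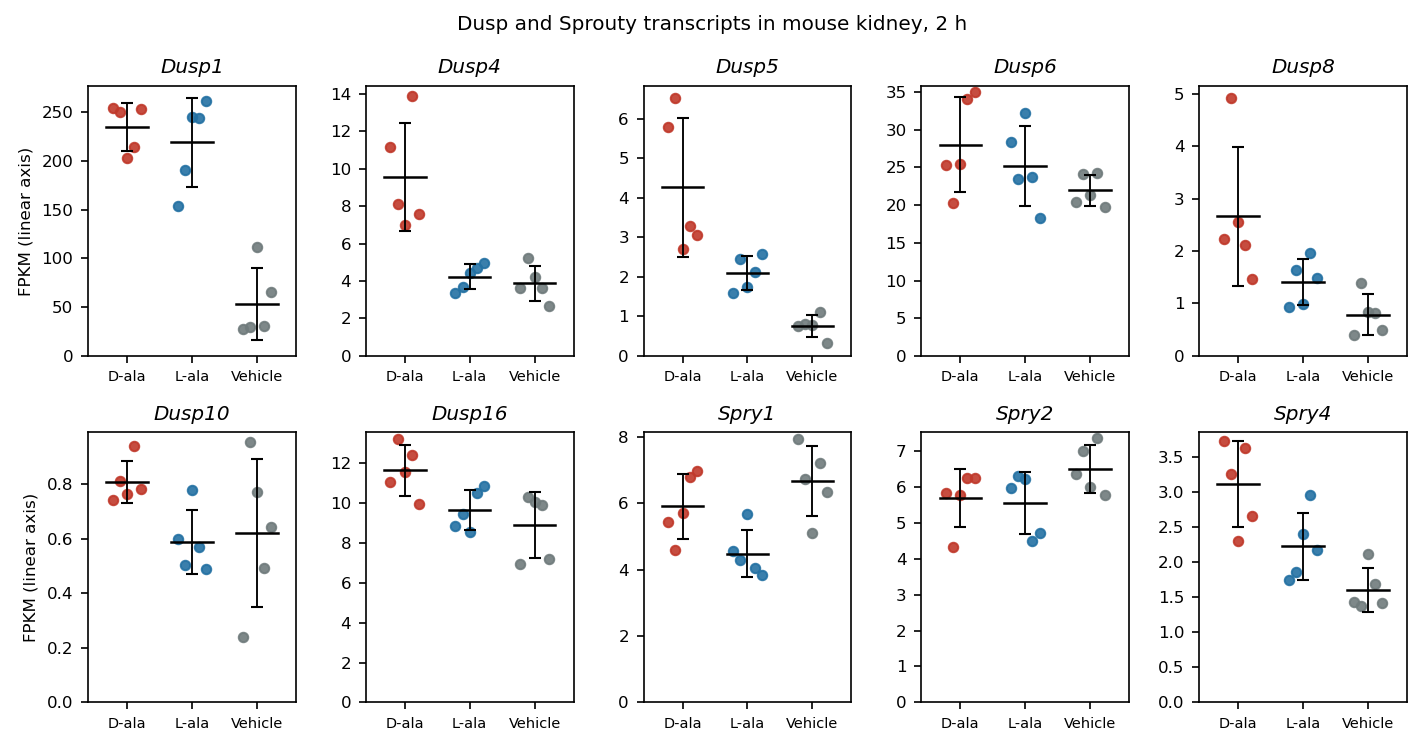
FPKM of the 10 genes in each of the 15 libraries, on linear axes that start at 0, with D-ala, L-ala and vehicle from left to right. Points are libraries, long bars are means and whiskers are SD (n = 5); for Dusp1 every D-ala and L-ala point lies above every vehicle point, for Dusp4 only D-ala does, and for Spry1 the lowest mean is that of L-ala.

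Set against vehicle, 6 of the 9 tested members rose with D-ala (Dusp1, Dusp4, Dusp5, Dusp8, Dusp16 and Spry4), where 6.53% of all 11781 tested genes were called higher. No tested member was called lower by limma, and none had a lower level at an unadjusted p under 0.05, where 4.92% of all tested genes were called lower. With L-ala 2 members rose (Dusp1 and Dusp5), where 6.48% of all tested genes were called higher, and 1 fell (Spry1), where 4.53% were called lower. The median log2 difference of the 9 members was 0.65 for D-ala and 0.17 for L-ala, beside 0.0011 and 0.0070 over all tested genes. Because Dusp5 and Dusp8 passed the filter through the groups in which they were high, these counts and medians describe the genes that passed and not the whole list. Both comparisons use the same 5 vehicle libraries, so their values are not independent of each other.

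**Figure D3:**
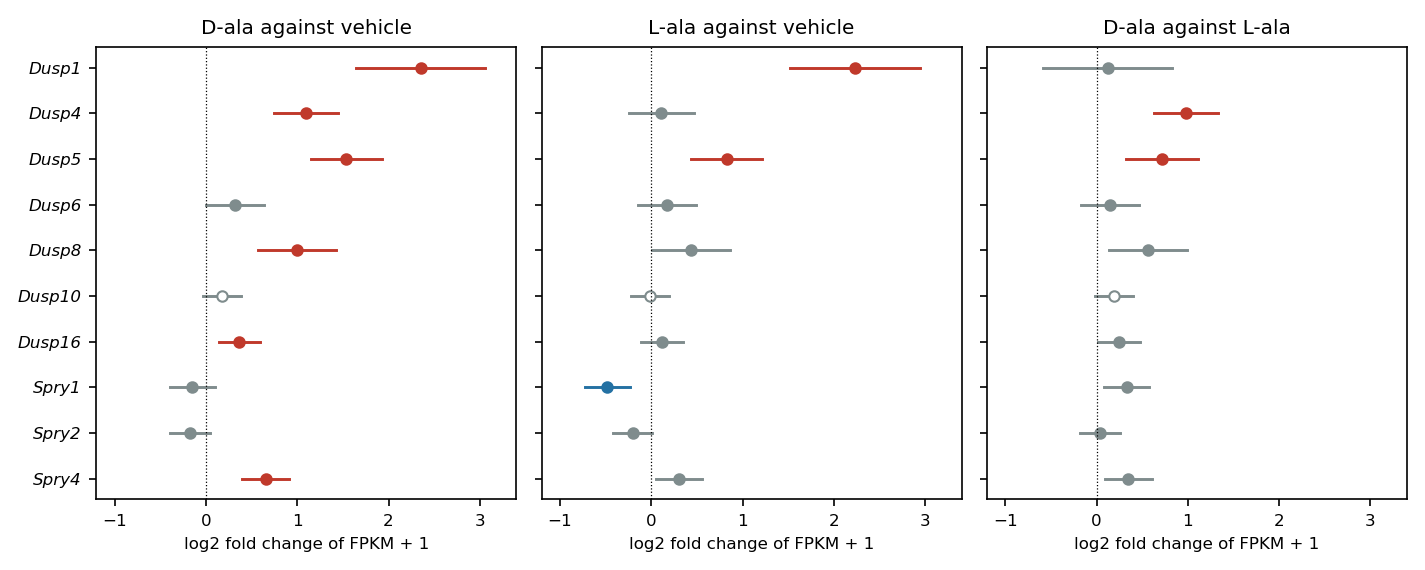
Difference of log2(FPKM + 1) and its 95% interval for each of the 10 genes, with a panel for each alanine group against vehicle and one for the isomers. Red points were called higher, blue points called lower and grey points not called; open points show Dusp10, which was below the filter and comes from the fit without it. The largest values are those of Dusp1 at 2.35 and 2.23 in the vehicle comparisons, while between the isomers Dusp4 at 0.98 and Dusp5 at 0.71 were called.

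Dusp1, Dusp4 and Dusp5 encode inducible phosphatases of the nucleus. All 3 rose with D-ala, Dusp1 and Dusp5 also rose with L-ala, and Dusp4 did not pass the test with L-ala. Dusp1 (chromosome 17, 26505591 to 26508472, RefSeq bounds on GRCm38.p6 as for the genes that follow), whose product acts on ERK, JNK and p38, had 255, 250.3, 203, 214 and 254 FPKM in D-ala replicates 1 to 5. L-ala replicates 1 to 5 had 154, 191, 245, 245 and 262 FPKM of Dusp1, and vehicle replicates 1 to 5 had 27.8, 29.2, 112, 30.5 and 65.7 FPKM. Vehicle replicates 3 and 5 stood above the other vehicle libraries, yet neither alanine group overlapped the vehicle group. The mean was 235 ± 24.8 FPKM in D-ala, 219 ± 45.4 in L-ala and 53.1 ± 36.7 in vehicle libraries (SD, n = 5 each). With D-ala the log2 fold change of Dusp1 was 2.35 (SE 0.33, 95% interval 1.64 to 3.06, limma adjusted p = 7.16e-04), and with L-ala it was 2.23 (SE 0.33, 1.52 to 2.94, adjusted p = 0.00325). Without vehicle replicate 3, the highest vehicle library, these values were 2.67 and 2.55.

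Dusp4 (chromosome 8, 34807610 to 34819894), a close relative of Dusp1, was the member with the largest called difference between the isomers. It had 11.2, 8.14, 6.98, 13.9 and 7.60 FPKM in D-ala replicates 1 to 5, against 3.38, 3.67, 4.43, 4.71 and 4.95 in L-ala and 3.64, 5.25, 4.22, 3.61 and 2.67 in vehicle replicates 1 to 5. Every D-ala library lay above every L-ala and every vehicle library, while L-ala and vehicle ranges overlapped. The level rose by 1.09 on the log2 scale with D-ala over vehicle (SE 0.17, 0.74 to 1.45, limma adjusted p = 6.83e-04) and was 0.98 higher in D-ala than in L-ala (SE 0.17, 0.63 to 1.33, adjusted p = 0.00227). Between L-ala and vehicle the difference was 0.11 (SE 0.17, -0.24 to 0.46, adjusted p = 0.681). Within the D-ala group, replicates 1 and 4 were the highest for Dusp4, and replicates 1 and 2 were the highest for Dusp5.

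Dusp5 (chromosome 19, 53529145 to 53541809) encodes a nuclear phosphatase specific for ERK, and its means stepped up over the 3 groups. D-ala replicates 1 to 5 had 5.79, 6.52, 2.70, 3.28 and 3.05 FPKM, L-ala replicates 1.58, 2.46, 1.75, 2.13 and 2.58, and vehicle replicates 0.764, 0.806, 0.775, 1.12 and 0.319. No pair of groups overlapped. The log2 fold change was 1.54 with D-ala (SE 0.19, 1.15 to 1.93, limma adjusted p = 8.83e-05) and 0.82 with L-ala (SE 0.19, 0.43 to 1.22, adjusted p = 0.0161), and D-ala was 0.71 above L-ala (SE 0.19, 0.32 to 1.11, adjusted p = 0.0215). These levels rest on few reads, an estimated 28 to 67 per D-ala library, 17 to 24 per L-ala library and 3 to 12 per vehicle library, and the gene passed the filter through the alanine groups, since 1 vehicle library reached 1 FPKM. Leaving out replicate 1 of L-ala (adjusted p = 0.0536) or of D-ala (adjusted p = 0.0539) ended the call between the isomers, and the call with L-ala over vehicle was lost when the trend with gene length was removed (adjusted p = 0.0572).

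Dusp6 (chromosome 10, 99263231 to 99267489), the cytoplasmic phosphatase specific for ERK and a transcript often used as a readout of ERK activity, did not pass the test in any comparison. It had 25.3, 20.3, 25.5, 34.1 and 34.97 FPKM in D-ala, 28.4, 23.5, 32.2, 23.7 and 18.3 in L-ala and 20.4, 24.1, 21.3, 24.2 and 19.7 in vehicle replicates 1 to 5. All D-ala libraries except replicate 2 lay above the vehicle range, as did L-ala replicates 1 and 3, and the remaining L-ala libraries lay within or below it. The log2 difference was 0.32 for D-ala (SE 0.15, 0.0013 to 0.63, limma adjusted p = 0.187), 0.17 for L-ala (SE 0.15, -0.14 to 0.49, adjusted p = 0.448) and 0.14 between D-ala and L-ala (SE 0.15, -0.17 to 0.46, adjusted p = 0.542). Estimated reads for Dusp6 numbered 428 to 972 per library.

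Dusp8, Dusp10 and Dusp16 encode phosphatases that act mainly on JNK and p38. Dusp8 and Dusp16 rose with D-ala, by 0.99 and 0.37 on the log2 scale, and neither passed the test with L-ala. Dusp8 (chromosome 7, 142079487 to 142095907) had 2.23, 4.92, 2.55, 2.12 and 1.47 FPKM in D-ala replicates 1 to 5, against 0.937, 1.64, 0.993, 1.96 and 1.49 in L-ala and 0.392, 1.39, 0.835, 0.821 and 0.502 in vehicle replicates 1 to 5. All D-ala libraries lay above all vehicle libraries, the lowest of them narrowly, and L-ala overlapped both. The fold change with D-ala had SE 0.20 (0.57 to 1.42, limma adjusted p = 0.00509). For L-ala it was 0.43 (SE 0.20, 0.0077 to 0.86, adjusted p = 0.157) and for D-ala over L-ala 0.56 (SE 0.20, 0.13 to 0.99, adjusted p = 0.0742). Dusp8 passed the filter with all 5 D-ala, 3 L-ala and 1 vehicle library at 1 FPKM or more. Its D-ala to L-ala difference was called with array weights (adjusted p = 0.0289) and without D-ala replicate 5 (adjusted p = 0.0388).

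Dusp16 (chromosome 6, 134715468 to 134807063) had 11.1, 13.2, 11.5, 12.4 and 9.92 FPKM in D-ala replicates 1 to 5, against 8.86, 9.45, 8.54, 10.5 and 10.8 in L-ala and 6.93, 10.3, 10.02, 9.90 and 7.21 in vehicle replicates. Its D-ala range overlapped the vehicle range through D-ala replicate 5, and vehicle replicates 1 and 5 were the lowest of all libraries. The change of 0.37 with D-ala (SE 0.11, 0.14 to 0.59, limma adjusted p = 0.0379) was lost under 8 of 26 alternatives, more than any other member's call. It had adjusted p = 0.0585 without the filter on low values, 0.0530 when L-ala was left out of the fit, 0.0594, 0.0903, 0.0647 and 0.0717 without D-ala replicate 1, 2, 3 or 4, and 0.0874 and 0.0876 without vehicle replicate 1 or 5. The L-ala difference was 0.12 (SE 0.11, -0.11 to 0.35, adjusted p = 0.473) and that of D-ala over L-ala was 0.25 (SE 0.11, 0.019 to 0.48, adjusted p = 0.132).

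Dusp10 (chromosome 1, 184034381 to 184075636) had 0.743, 0.810, 0.765, 0.939 and 0.781 FPKM in D-ala, 0.599, 0.503, 0.778, 0.570 and 0.487 in L-ala and 0.241, 0.953, 0.769, 0.492 and 0.643 in vehicle replicates 1 to 5. Vehicle libraries spanned both alanine groups, and estimated reads per library numbered 5 to 25. On log2(FPKM + 1), the difference was 0.17 for D-ala against vehicle (exact two-sided permutation p = 0.198), -0.015 for L-ala against vehicle (exact p = 0.873) and 0.19 for D-ala against L-ala (exact p = 0.0238). These p-values are not adjusted, and the smallest the design allows is 0.00794. In the limma fit without a filter on low values the adjusted p was 0.345, 0.972 and 0.268 in the same order.

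The calls of the Sprouty genes differed, and the genes were not tested against each other. Spry4 rose with D-ala, Spry1 fell with L-ala, and Spry2 did not pass the test in any comparison. Spry1 (chromosome 3, 37639947 to 37644599) had 5.45, 4.61, 5.71, 6.80 and 6.98 FPKM in D-ala replicates 1 to 5, against 4.56, 4.29, 5.68, 4.06 and 3.84 in L-ala and 7.92, 6.73, 5.10, 7.22 and 6.35 in vehicle replicates. Vehicle replicate 3 lay inside the L-ala range, and the other vehicle libraries lay above all L-ala libraries. The log2 fold change with L-ala was -0.48 (SE 0.12, -0.73 to -0.23, limma adjusted p = 0.0204). With D-ala it was -0.15 (SE 0.12, -0.40 to 0.096, adjusted p = 0.452), and D-ala was 0.33 above L-ala (SE 0.12, 0.084 to 0.58, adjusted p = 0.0688). The L-ala call was lost without vehicle replicate 4 (adjusted p = 0.0646) or L-ala replicate 4 (adjusted p = 0.0576), and the D-ala to L-ala difference was called without L-ala replicate 3 (adjusted p = 0.0403) or D-ala replicate 2 (adjusted p = 0.0374).

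Some markers of endothelium and of the thick ascending limb were also lower with L-ala, and those of endothelium with D-ala too. Of the endothelial markers 4 of 7 fell with L-ala (Cdh5, Kdr, Pecam1 and Tek, median of the list -0.49), and with D-ala 2 of 7 fell (Pecam1 and Tek, median -0.40). At an unadjusted limma p under 0.05, 6 of these 7 markers were lower with D-ala and 5 with L-ala. Their summed FPKM ran from 78.9 to 102 in D-ala, 64.7 to 128 in L-ala and 88.1 to 137 in vehicle libraries, and no endothelial marker was at 0. Of 4 thick ascending limb markers 1 fell with L-ala (Umod, -0.43, limma adjusted p = 0.0395, median of the list -0.30), and none was called with D-ala or lower at an unadjusted p under 0.05. Their summed level was 1156 to 1854 FPKM in D-ala, 1054 to 1507 in L-ala and 1685 to 1973 in vehicle libraries, so that L-ala and vehicle did not overlap. The part of either cell type in the Spry1 result was not tested, and in whole tissue fewer cells of a type and less RNA per cell cannot be told apart.

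Spry2 (chromosome 14, 105891947 to 105896819) had 5.83, 4.32, 5.77, 6.26 and 6.25 FPKM in D-ala, 5.96, 6.29, 6.22, 4.49 and 4.72 in L-ala and 6.35, 7.01, 6.003, 7.36 and 5.78 in vehicle replicates 1 to 5. Each group overlapped the other 2. The log2 difference was -0.17 for D-ala (SE 0.10, -0.39 to 0.048, limma adjusted p = 0.309), -0.20 for L-ala (SE 0.10, -0.42 to 0.014, adjusted p = 0.190) and 0.034 between D-ala and L-ala (SE 0.10, -0.18 to 0.25, adjusted p = 0.853).

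Spry4, the member of the Sprouty genes with the lowest level, had 3.73, 3.26, 2.31, 3.63 and 2.66 FPKM in D-ala replicates 1 to 5, against 1.75, 1.86, 2.40, 2.96 and 2.18 in L-ala and 1.43, 1.37, 2.11, 1.69 and 1.42 in vehicle replicates 1 to 5. All D-ala libraries exceeded all vehicle libraries, and L-ala overlapped both groups. The level rose by 0.65 on the log2 scale with D-ala (SE 0.12, 0.40 to 0.91, limma adjusted p = 0.00255). The difference was 0.30 for L-ala (SE 0.12, 0.050 to 0.56, adjusted p = 0.101) and 0.35 for D-ala over L-ala (SE 0.12, 0.096 to 0.60, adjusted p = 0.0627). With array weights, or without L-ala replicate 4 or D-ala replicate 3, the D-ala to L-ala difference was called (adjusted p = 0.0370, 0.0439 and 0.0410).

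D-ala and L-ala, the one pair of related compounds here, differ in the handedness of a single carbon centre. Directly compared, 2 members were higher with D-ala than with L-ala, Dusp4 by 0.98 and Dusp5 by 0.71 on the log2 scale, where 7.01% of all tested genes were called higher. By limma 0 members were called lower, and 0 were lower at an unadjusted p under 0.05, where 6.66% of all tested genes were called lower. The median difference of the 9 members was 0.33, beside -0.0090 over all tested genes. For Dusp1, the member with the highest level, the difference was 0.12 (SE 0.33, 95% interval -0.59 to 0.83, limma adjusted p = 0.834), an interval that spans a 0.83 log2 excess with D-ala and a 0.59 excess with L-ala, so it does not show that the isomers acted alike. Dusp8, Dusp16, Spry1 and Spry4 had intervals that lay wholly above 0 before adjustment over all genes and adjusted p between 0.0627 and 0.132.

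Leaving out L-ala replicate 5, the library that stood apart, left 3 members called with L-ala over vehicle and 2 between the isomers. With L-ala over vehicle the values were then 2.16 for Dusp1 (limma adjusted p = 0.00348), 0.77 for Dusp5 (adjusted p = 0.0151) and -0.44 for Spry1 (adjusted p = 0.0199). With D-ala over L-ala they were 1.03 for Dusp4 (adjusted p = 0.00164) and 0.77 for Dusp5 (adjusted p = 0.0134).

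Across the 15 libraries the members formed no single pattern. Pearson correlations of log2(FPKM + 1) were 0.871 between Dusp5 and Dusp8, 0.882 between Dusp8 and Dusp16, 0.853 between Dusp5 and Spry4 and 0.840 between Dusp4 and Spry4. Spry1 and Spry2 correlated with each other at 0.718 and with Dusp1 at -0.635 and -0.608. Dusp6 correlated with no other member above 0.446. These are descriptions over libraries that share the 3 treatment groups, so differences between groups are part of every value.

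The 3 tested genes most like each called member over the same 15 libraries, by Pearson correlation, differed from member to member. Dusp1 was closest to Errfi1 (0.973), Pim3 (0.971) and Cebpd (0.953), Dusp4 to Skil (0.943), Bhlhe40 (0.934) and Kdm6b (0.919), and Dusp5 to Midn (0.9504), Emd (0.904) and Ccnl1 (0.903). Dusp8 was closest to Kctd15 (0.914), Mt2 (0.905) and Nolc1 (0.889), and Dusp16 to Alkbh5 (0.889), Adamts1 (0.882) and Vps37b (0.874). Spry1 was closest to Zfp7 (0.913), Sox18 (0.888) and Cdc42ep1 (0.882), and Spry4 to Tnfrsf21 (0.906), Pde4dip (0.892) and Ankrd9 (0.889). Errfi1, whose product blocks the EGF receptor, shared with Dusp1 the raised levels in vehicle replicates 3 and 5. It had 445, 453, 383, 354 and 406 FPKM in D-ala, 316, 366, 319, 379.7 and 414 in L-ala and 166, 156, 264, 140.1 and 241 in vehicle replicates 1 to 5. For Dusp4 and Dusp5, in contrast, vehicle replicate 5 was the lowest of its group.

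**Figure D4:**
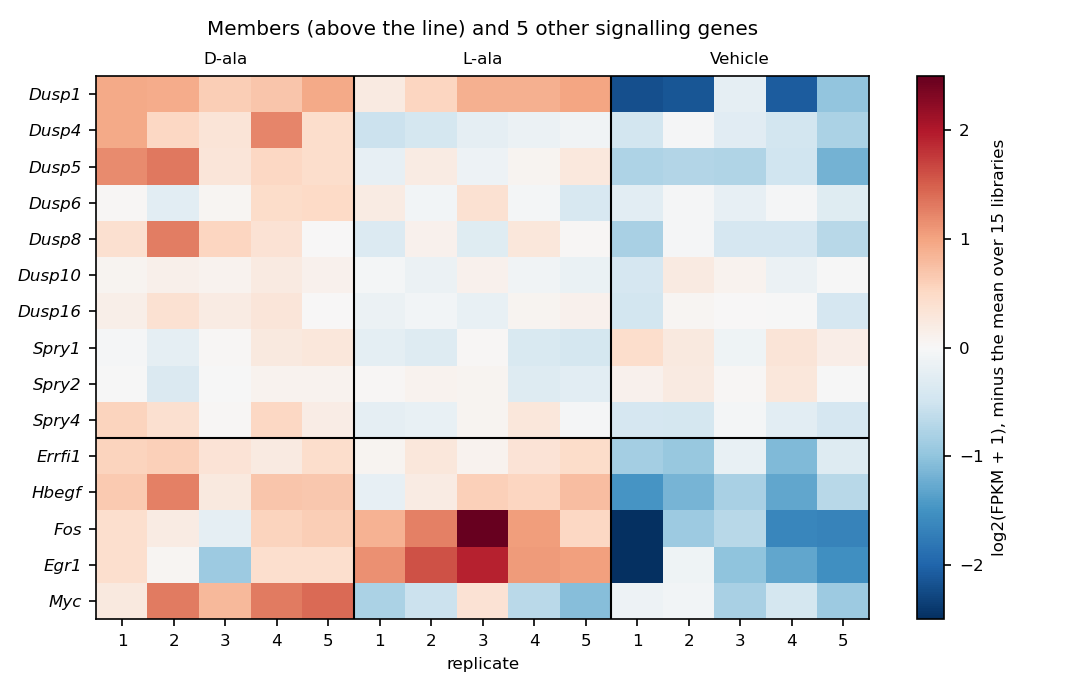
Deviation of log2(FPKM + 1) from the mean over 15 libraries for the 10 genes and, under the line, for Errfi1, Hbegf, Fos, Egr1 and Myc, with D-ala, L-ala and vehicle replicates 1 to 5 from left to right. Red is above and blue below the mean, with colours saturated at the ends of the scale; Dusp1 is red across both alanine groups, Dusp4 is red in all D-ala libraries and in none of L-ala, and Fos and Egr1 are reddest in L-ala replicate 3.

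Some genes of the kinase cascades that the members restrain were called. Over all tested genes, 6.53% were called higher and 4.92% lower with D-ala, and 6.48% and 4.53% with L-ala. For D-ala against L-ala these shares were 7.01% and 6.66%. The counts that follow were not tested against these shares. In the Ras-ERK cascade 1 of 16 tested genes rose with D-ala (Araf, 0.15, SE 0.040, limma adjusted p = 0.0224), and 1 fell with L-ala (Frs2, an adaptor of fibroblast growth factor receptors, -0.30, SE 0.089, adjusted p = 0.0403). Between D-ala and L-ala 1 was lower (Map2k2, an ERK kinase, -0.24, SE 0.074, adjusted p = 0.0420). Mapk3, which encodes an ERK, had log2 differences of -0.00092 with D-ala and 0.057 with L-ala, and Map2k1, which encodes a kinase of ERK, had -0.067 and -0.0066, none of them called. List medians were -0.039 for D-ala, -0.026 for L-ala and 0.016 for D-ala against L-ala. In the JNK and p38 cascade 2 of 15 tested genes fell with D-ala (Map3k7, -0.19, and Map3k11, -0.23), and 2 rose with L-ala (Map2k6, a p38 kinase, 0.69, and the p38 isoform gene Mapk13, 0.37). Between D-ala and L-ala limma called 0 genes of that cascade, and 1 was higher and 1 lower at an unadjusted p under 0.05. Of 8 tested kinases that MAP kinases activate, Mapkapk2 rose with D-ala (0.24), Mapkapk3 (-0.51) and Mknk1 (-0.27) fell with L-ala, and Mapkapk3 was 0.34 higher in D-ala than in L-ala.

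The few relatives of the members that passed the test were lower. Over all tested genes, 4.92% were called lower with D-ala, 4.53% with L-ala and 6.66% in D-ala against L-ala. Of 4 tested other MAP kinase phosphatases and Sprouty-related genes, Spred1 fell with D-ala (-0.40, SE 0.12, limma adjusted p = 0.0459), Spred2 fell with L-ala (-0.67, SE 0.15, adjusted p = 0.0175) and Dusp7, a cytoplasmic ERK phosphatase, was lower in D-ala than in L-ala (-0.32, SE 0.091, adjusted p = 0.0294). Spred proteins, like Sprouty proteins, restrain the Ras to ERK route. The list medians were -0.26 for D-ala, -0.32 for L-ala and 0.081 for D-ala against L-ala. Among 10 tested atypical dual-specificity phosphatases, which lack the MAP kinase docking domain, Dusp19 fell with D-ala (-0.28) and was lower in D-ala than in L-ala (-0.44), as was Dusp12 (-0.29). No atypical phosphatase was called between L-ala and vehicle by limma, and 0 passed an unadjusted p under 0.05. At that unadjusted p, 2 atypical phosphatases were higher and 3 lower in D-ala, both against vehicle and against L-ala. Of the 4 genes of the first list, 0 were higher and 3 lower with D-ala, and 0 higher and 2 lower with L-ala. In D-ala against L-ala, 2 of these 4 were higher and 1 lower.

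Other brakes on receptor and Ras signalling included Errfi1, which rose with D-ala (1.11, SE 0.15, limma adjusted p = 2.59e-04) and L-ala (0.93, SE 0.15, adjusted p = 0.00364). Of the 11 tested genes of that list, Rgs2, a brake on G protein signalling, also rose with D-ala (0.50) and L-ala (0.57), Pebp1, an inhibitor of Raf, rose with L-ala (0.33), and Rasa1, a Ras GTPase-activating protein, fell with D-ala (-0.28). Pebp1 was lower in D-ala than in L-ala (-0.24). Among 9 tested growth factor ligands, Hbegf, a ligand of the epidermal growth factor receptor, averaged 35.4 FPKM in D-ala, 28.03 in L-ala and 9.42 in vehicle libraries and rose with both (1.80 and 1.47, adjusted p = 9.56e-05 and 0.00229). Vegfa, the endothelial growth factor, rose with D-ala (0.78, adjusted p = 1.40e-04), was not called with L-ala (-0.10, adjusted p = 0.504) and was 0.88 higher in D-ala than in L-ala (adjusted p = 7.14e-05). Of 14 tested receptors, Fgfr3 rose with D-ala (0.53) and was 0.56 higher in D-ala than in L-ala. Pdgfra (-0.63), Erbb2 (-0.33), Erbb3 (-0.74) and Met (-0.30) fell with D-ala, and Erbb3 (-1.18), Kdr (-0.85) and Flt1 (-0.73) fell with L-ala.

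Among transcripts outside the members that respond to ERK, the direction depended on the gene. Fos had 12.4, 10.5, 7.54, 13.7 and 14.2 FPKM in D-ala, 17.2, 22.7, 62.3, 19.6 and 13.2 in L-ala and 0.192, 4.30, 5.11, 2.195 and 2.13 in vehicle replicates 1 to 5. It rose with D-ala (1.91, SE 0.45, limma adjusted p = 0.0174) and with L-ala (2.87, SE 0.45, adjusted p = 0.00529). Egr1 rose with L-ala (2.78, SE 0.48, adjusted p = 0.00757), and with D-ala its difference of 1.51 was not called (SE 0.48, adjusted p = 0.0587). Directly between D-ala and L-ala, neither Fos (-0.95, limma adjusted p = 0.174) nor Egr1 (-1.27, adjusted p = 0.0933) was called. Myc, by contrast, averaged 8.06 FPKM in D-ala, 2.14 in L-ala and 2.19 in vehicle libraries, and it was 1.56 higher in D-ala than in L-ala (SE 0.27, adjusted p = 0.00348). Etv5, which like Dusp6 and Spry4 is often used as an ERK readout, had differences of 0.15 with D-ala and 0.058 with L-ala and was not called. Its relative Etv4 stayed under the filter at mean levels of 0.654, 0.419 and 0.369 FPKM in D-ala, L-ala and vehicle libraries. Over the 13 tested genes of the list, 4 rose and 1 fell with D-ala (Myc, Ier3, Epha2 and Fos; Elk3), 3 rose and 1 fell with L-ala (Fos, Egr1 and Ier3; Elk3), and 1 was higher in D-ala than in L-ala (Myc).

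Lists of other inducible genes, which share members such as Fos, Myc, Per1 and Errfi1 with each other and with the lists above, also held called genes. Of 18 tested immediate early genes 13 rose with D-ala (median of the list 1.44) and 14 with L-ala (median 1.32), among them Btg2, Junb and Jun in both. Fosl2 (1.10, adjusted p = 0.0158 by limma) and Myc were higher in D-ala than in L-ala, and 0 were called lower. The median of that list between D-ala and L-ala was -0.17. At an unadjusted limma p under 0.05, 2 of its genes were higher and 6 lower in D-ala. Of 15 CREB and cyclic AMP pathway genes 9 rose with D-ala (median 0.56), among them Sik1 (2.08) and Nr4a1 (2.88), and 5 with L-ala (median 0.27), among them Sik1 (1.27) and Cebpb (2.35). Sik1, G6pc and Crtc2, which encodes a coactivator of CREB, were higher in D-ala than in L-ala, by 0.81, 0.74 and 0.22. For Crtc2 the differences from vehicle were 0.051 with D-ala and -0.17 with L-ala, neither called. Of 12 glucocorticoid targets 6 rose with D-ala (median 0.61) and 7 with L-ala (median 0.68), among them Ddit4 (2.51), and Nfkbia was 2.36 lower on the log2 scale in D-ala than in L-ala (limma adjusted p = 0.00227). The members' medians of 0.65 and 0.17 stand beside these as descriptions and were not tested against them.

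**Figure D5:**
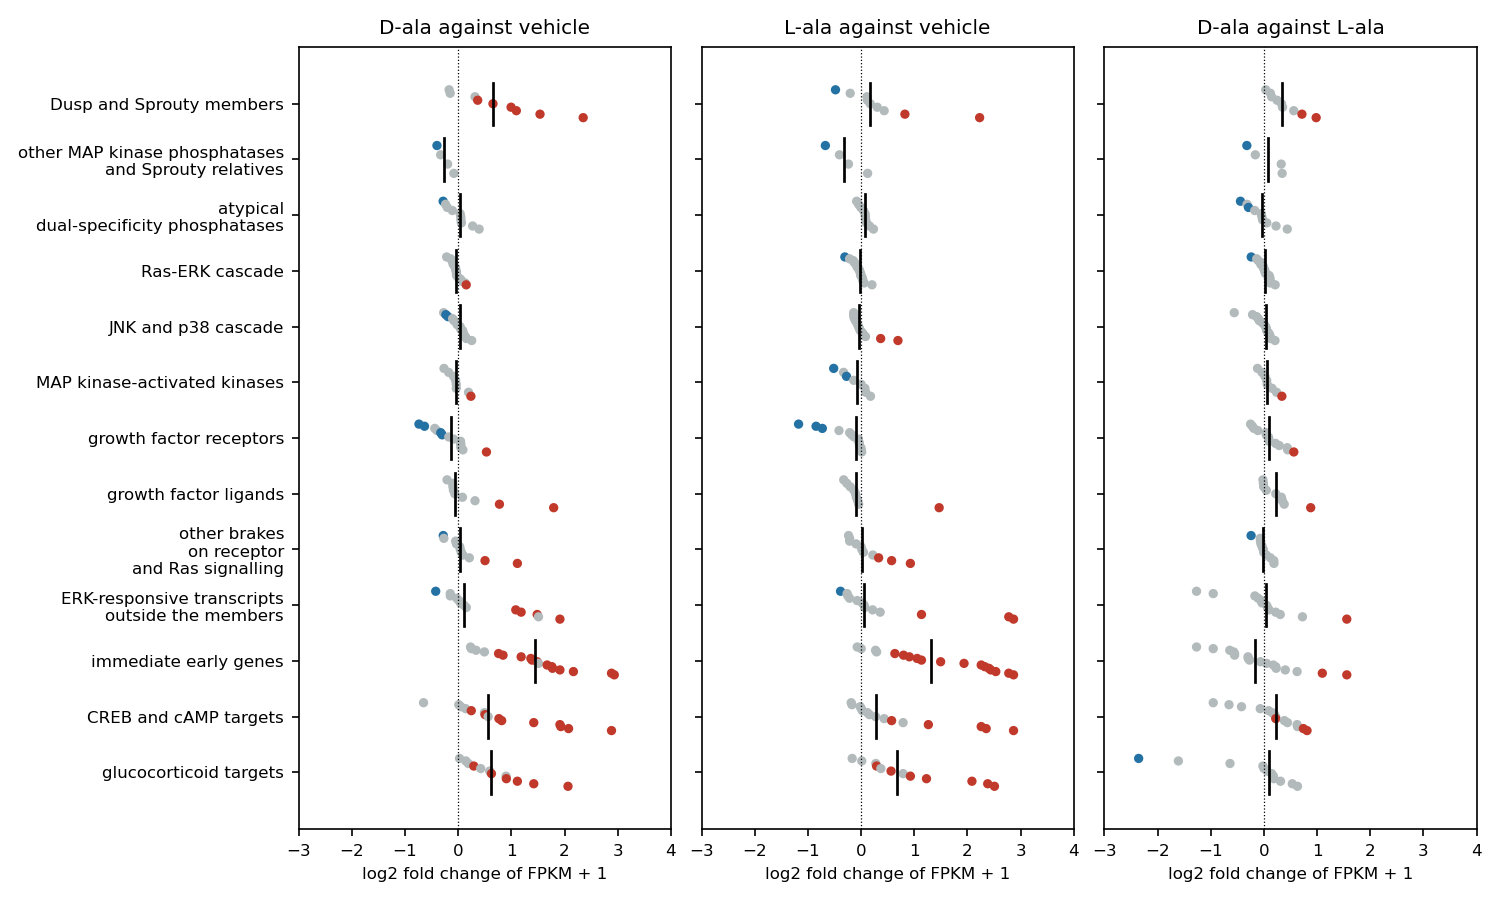
Log2 fold change of FPKM + 1 of every tested gene in the Dusp and Sprouty members and 12 lists of related genes, for the 3 comparisons. Red points were called higher, blue points called lower, grey points not called, and the black bar is the median of each list; bars of the kinase lists lie close to 0, and those of the immediate early genes lie at 1.44 and 1.32 in the vehicle comparisons.

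Markers of blood-derived cells also differed between the groups. Neutrophil markers S100a8 and S100a9, the 2 of that list that were tested, rose with L-ala (2.03 and 1.80), and the summed level of 7 neutrophil genes ran from 2.42 to 11.3 FPKM in D-ala, 13.1 to 35.02 in L-ala and 0.641 to 7.81 in vehicle libraries. Of 6 tested macrophage markers 3 fell with D-ala (Lyz2, C1qb and C1qc) and 1 with L-ala (Lyz2). The summed level of 7 red blood cell genes ran from 43.9 to 471 FPKM in D-ala, 274 to 754 in L-ala and 25.5 to 267 in vehicle libraries, with no overlap between L-ala and vehicle. Of 6 tested red blood cell markers limma called none with L-ala over vehicle, although 5 were higher at an unadjusted p under 0.05 (median of the list 1.70), and Hbb-b1 was lower in D-ala than in L-ala (-2.87, adjusted p = 0.0380). The part of these cells in the levels of the members was not tested.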

How the data were processed

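RNA was sequenced from 15 kidney libraries, 5 per group, made with a stranded messenger RNA kit per the labels' protocols. The submitters' processing notes name the build mm10 and, with no roles, SAMtools 0.1.19, Bowtie2 2.2.3 and TopHat2 2.0.13; the program behind the gene values is not given in the sources used here. The authors deposited FPKM per gene and library, named so per the file headers, and these were the values tested. A deposited log2 column, headed as processed signal, differed by at most 0.0012 from gene-centred log2 FPKM, over genes at 1 FPKM or more in all libraries, and was not tested. The deposited column headed as a count was treated as a score, because its whole numbers had been rescaled to a common depth; dividing by the factor found for each library gave the estimated reads quoted. No count model was fitted to it.

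Genes that reached 1 FPKM in at least 5 libraries were tested as log2(FPKM + 1) with limma 3.58.1 in R 4.3.3, with 1 mean per group over all 15 libraries, a variance trend and robust moderation. Every adjusted p is Benjamini-Hochberg over the 11781 tested genes within a comparison, and intervals are at 95%. Dusp10, below the filter, was compared with an exact two-sided permutation test. FPKM carry no counting interval, so precision is the spread between libraries. The method was tested on simulated data, with values drawn independently for each gene and library. That test does not cover a library that stands apart from its group.

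The members and gene lists were chosen with earlier results of these data known. Named were all members and up to 3 called genes of smallest p per list and comparison. In some lists with 5 or fewer called genes, all of these were named. Also named were the 3 genes most like each called member without Gm or Rik models, and Mapk3, Map2k1, Map2k2, Egr1, Fos, Etv4 and Etv5. Per-library values of Errfi1 and means of Hbegf were added after their values were seen. One item covered by this rule is not reported here. Replicate numbers only name libraries. Alternatives changed the pseudocount (0.1 or 0.5), filter, scaling, variance model, libraries in the fit, library weights, gene length trend and each left-out library; removal of a GC trend was added after seeing the data.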

Additional observations from a re-analysis of the deposited data

Results flagged for a closer look

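In 1 of the 30 sets of 5 libraries examined (10 genes in 3 groups), a library lay far from the others of its group. This was Spry2 in D-ala replicate 2, at 4.317 FPKM, where the other D-ala libraries had 5.77 to 6.26 FPKM and vehicle libraries 5.78 to 7.36 FPKM. Chance marks about 1 set in 20 in this way. Without this library the D-ala difference of Spry2 from vehicle was -0.09 on the log2 scale (limma adjusted p = 0.614), against -0.17 with it, and it was not called in either case.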

How the results depend on the processing

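Over 27 member comparisons and 696 alternatives, 676 values kept their side of the threshold, 13 lost a call and 7 gained one. Of the called values 0 reversed. A change of sign between values not called was not counted, as for Spry2 between D-ala and L-ala, which ran from -0.026 to 0.11. No call changed in 20 comparisons. The changes, all given beside their results, concern Dusp16 for D-ala against vehicle, Dusp5 and Spry1 for L-ala against vehicle, and Dusp5, Dusp8, Spry1 and Spry4 for D-ala against L-ala. Members called between D-ala and L-ala numbered 2, but 1 with at least 1 FPKM required in all 15 libraries, where Dusp5 and Dusp8 are not tested, 4 with array weights, and 1 to 3 when a library was left out. Genes called for D-ala against vehicle numbered 1349, and 812 (without vehicle replicate 4) to 1592 with a library left out. For L-ala against vehicle 1297 genes were called, but 575 after quantile normalization, 603 with the 2 groups alone, 2308 with array weights, 750 with the gene length trend removed, and 321 (without vehicle replicate 4) to 2580 (without L-ala replicate 5) with a library left out. For D-ala against L-ala 1611 were called, but 975 with the 2 groups alone, 2700 with array weights, and 770 (without L-ala replicate 4) to 2761 (without L-ala replicate 5). The causes were not tested. Quantile normalization moved the share of called genes that were higher to 46.95% from 57.01% for D-ala and to 40.7% from 58.83% for L-ala against vehicle. No paired analysis was possible because the groups share no replicate numbers in the labels. The planned edgeR and DESeq2 alternatives were not run, since the count column is rescaled. Low reads limit Dusp5, Dusp8 and Dusp10.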
